A study of Mus musculus with 6 samples.

Results

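Arntl, also called Bmal1, was followed here as 1 gene of the 54 in the deposited table of mouse islet RNA. It was found by its Ensembl identifier, ENSMUSG00000055116, and the other 53 rows served as its surroundings. The gene was chosen from this table for its difference between the diets, so its levels are given as a description and no test was made on them. Islets are the endocrine cell clusters of the pancreas that hold the insulin-producing beta cells. All 6 libraries were made from mice of the C57BL/6 strain. Of these, 3 are from normal food, called control diet here, and 3 from high-fat food. The labels state 22 weeks of feeding and the series design text states 27. The labels state no sex or age, no number of mice per library, and no hour of collection or light schedule.

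Arntl encodes BMAL1, a transcription factor that pairs with CLOCK, binds E-box sequences and switches on the Per, Cry and Nr1d1 genes. The PER and CRY proteins then repress the CLOCK-BMAL1 pair, which closes the main loop of the circadian clock. In a second loop, nuclear receptors act on Arntl through RORE sequences at its promoter, with NR1D1 and NR1D2 (REV-ERB) as repressors, so that Arntl transcript rises and falls over the day. In mice, loss of BMAL1 from beta cells impairs glucose-stimulated insulin secretion. Because the hour of collection is not stated, a difference in hour between the diets was not tested.

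On GRCm38, Arntl lies on the forward strand of chromosome 7 from 113207465 to 113314126 (GENCODE M21). Its 6 annotated transcripts, 4 of them coding, cover 7523 exon bases, and Arntl-201, the transcript with the earliest start, has 20 exons and 2908 bases. The FPKM values (fragment counts scaled by transcript length and by library size) are per gene and do not separate these transcripts. Of its exon bases, 33 (0.439%) are shared with Gm45355, an antisense transcript on the opposite strand, and the strand setting of the counting is not given in the sources used here. None of the 2859 stretches of 50 bases in Arntl-201 occurs in an annotated transcript of another gene, its paralog Arntl2 included.

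The RORE sequences are shown because they are the known entry point of the second loop. Sequences are from RefSeq promoter windows on GRCm38.p6, 250 bases before to 50 after each annotated start, and 42 of the 54 genes had at least 1 window. Arntl had 2, with starts 46 bases apart. In the first pair of lines the capitals mark a RORE (downstream element, chr7:113207530-113207554) and the stretch most like it (upstream element, chr7:113207494-113207518). The third sequence is the 250 bases before the first start (chr7:113207215-113207464), with the pentamer ATTGG, an inverted CCAAT box, in capitals.
Arntl upstream element: tggtcggAAAGTAGGTTAgtggtgc
Arntl downstream element: aaggcagAAAGTAGGTCAgggacgg
Arntl before the start: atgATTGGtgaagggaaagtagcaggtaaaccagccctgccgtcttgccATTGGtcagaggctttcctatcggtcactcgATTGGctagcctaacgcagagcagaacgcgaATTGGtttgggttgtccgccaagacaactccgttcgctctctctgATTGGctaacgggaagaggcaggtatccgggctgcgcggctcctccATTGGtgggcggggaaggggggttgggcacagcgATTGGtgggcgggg

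The elements begin 36 and 72 bases after the first annotated start. Counted from 1 at the 5′ end of the 11 capital letters, they differ by C10T, with the downstream element's base given first. The downstream element matches the full RORE consensus. Searched on both strands, that consensus had a match in the windows of 0.459% of the 27025 genes in the promoter table and in those of 1 of the 42 table genes, Arntl. The core of the consensus, AGGTCA, which lies within the downstream element, was found in 18.1% of all genes. Of the 42 table genes, 5 held the core (Arntl, Gpr161, Has1, Mapkapk3 and Nrbf2).

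The E-box CACGTG, the sequence bound by CLOCK-BMAL1, was absent from both Arntl windows. It was found for 6 of the 42 table genes (14.3%), namely Cpne4, Crb1, Fkbp5, Hsph1, Mapkapk3 and Nrbf2, against 8.09% of all genes. Neither the D-box TTATGTAA (1.11% of all genes) nor the cyclic AMP response element TGACGTCA (2.03%) was in the Arntl windows. ATTGG, which was searched after the sequence was seen, occurred 8 times in the first window, each time on the gene's strand. Of 32851 promoter windows searched on both strands, 1, that of Arntl, held 8 or more. The median was 0, and no other table gene had more than 2. A match is a run of letters in a window and does not show that a protein binds there.

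**Figure D1:**
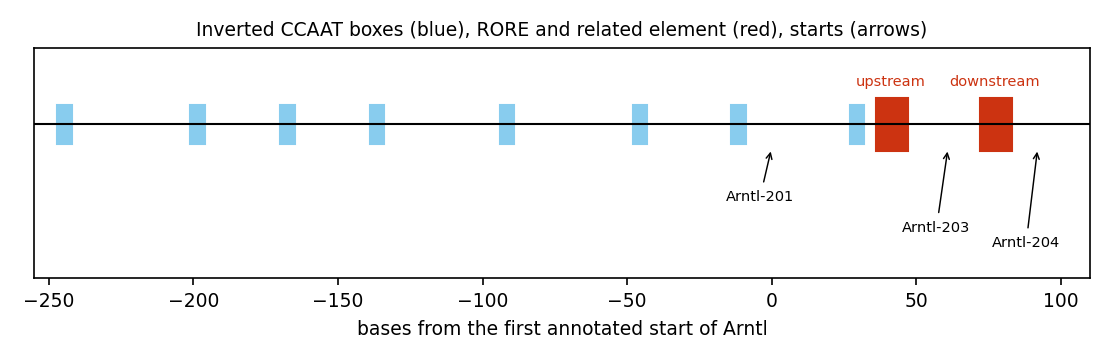
Positions along the Arntl promoter in bases from the first annotated start, with inverted CCAAT boxes in blue, the RORE (downstream) and its related element (upstream) in red, and arrows at the starts of 3 transcripts. The boxes stand at 7 places before the start and 1 after it, followed by both red elements.

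Arntl stood at 1.15, 0.643 and 0.644 FPKM in control diet replicates 1, 2 and 3, and at 2.62, 2.25 and 3.10 FPKM in high-fat diet replicates 1, 2 and 3. All high-fat libraries were above all control libraries, and the gap between the diets, 1.10 FPKM, was wider than the range within the control diet (0.507 FPKM) or the high-fat diet (0.846 FPKM). The mean was 0.812 ± 0.293 FPKM on the control diet and 2.66 ± 0.424 FPKM on the high-fat diet (SD, n = 3 each), a ratio of 3.27; 35.2% of the 54 rows had a ratio of at least 2. The mean difference of log2 FPKM was 1.76 (SE 0.31). Over the 9 comparisons of a high-fat with a control library the ratio ran from 1.96 to 4.82. Diets that do not overlap were common in this picked table: 94.4% of the 54 rows showed such a separation, and 61.1% showed it with the high-fat diet higher, so the separation itself does not set Arntl apart. Read totals are not given, so the depth behind these values is unknown. Nothing in the labels says whether libraries are separate animals, and the spread between them may be technical. In RNA from whole islets, more cells of a type and more RNA per cell cannot be told apart.

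In the authors' deposited table Arntl has a log2 fold change of 1.71, equal to the log2 ratio of the means. Its p-value there, 0.00056, is the third lowest of the 54, its score of -2.25 the fourth in size and its effect size of 5.07 the ninth. The score is negative where the high-fat mean is higher. All 54 deposited p-values, 100% of the table, lie under 0.01, and the test behind them is not given in the sources used here.

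**Figure D2:**
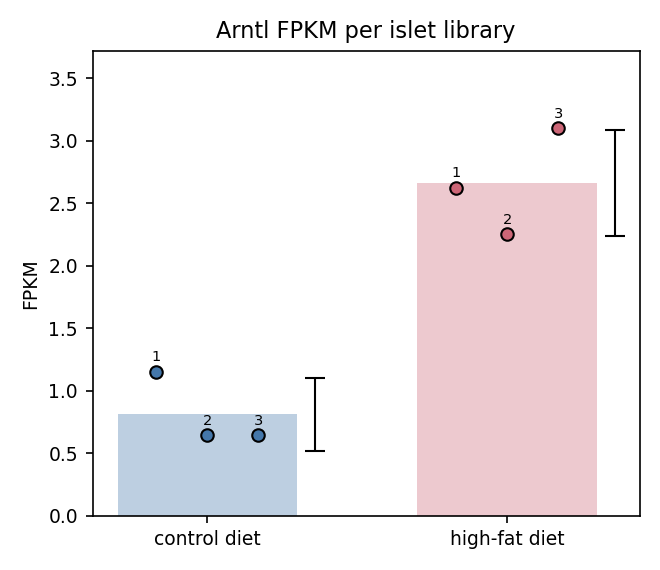
FPKM of Arntl in each islet library (points, numbered by replicate), with the diet mean as a bar and 1 SD as the error bar (n = 3). Arntl runs from 0.643 to 1.15 FPKM on the control diet and from 2.25 to 3.10 FPKM on the high-fat diet.

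The libraries also differed from each other in a way shared by many rows. Control diet replicate 1, the highest control library for Arntl, was the highest control library in 46 of the 54 rows. High-fat diet replicate 2, the lowest high-fat library for Arntl, was the lowest in 34 of them. In the control libraries the median over the 54 rows was 1.09, 0.548 and 0.642 FPKM. In the high-fat libraries it was 1.27, 0.982 and 1.30 FPKM. These rows were picked for differences and 36 of them are higher on the high-fat diet, so this median holds part of the diet difference; what else moves it was not tested.

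Arntl was therefore also placed within each library, where scaling between libraries plays no part. By FPKM, a level per length, it ranked 26, 25 and 27 of 54 in control libraries and 17, 18 and 15 in high-fat libraries, counted from the highest. Part of this shift comes from rows that fall, since 18 of the picked rows are lower on the high-fat diet. Gnal, Has1 and Selenbp1, for example, stood above Arntl in every control library and below it in every high-fat library. Divided by the library's row median, the level of Arntl was 1.05, 1.17 and 1.002 on the control diet against 2.07, 2.29 and 2.38 on the high-fat diet. Arntl thus sat at the middle of the table on the control diet and above it on the high-fat diet. The ratio between the diets was 2.09 on this scale, and the coefficient of variation fell from 36.0% to 8.24% among control and from 16.0% to 7.10% among high-fat libraries. In the control libraries Arntl ranked beside this median, so the ratios near 1 and their small spread there follow in part from its rank.

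**Figure D3:**
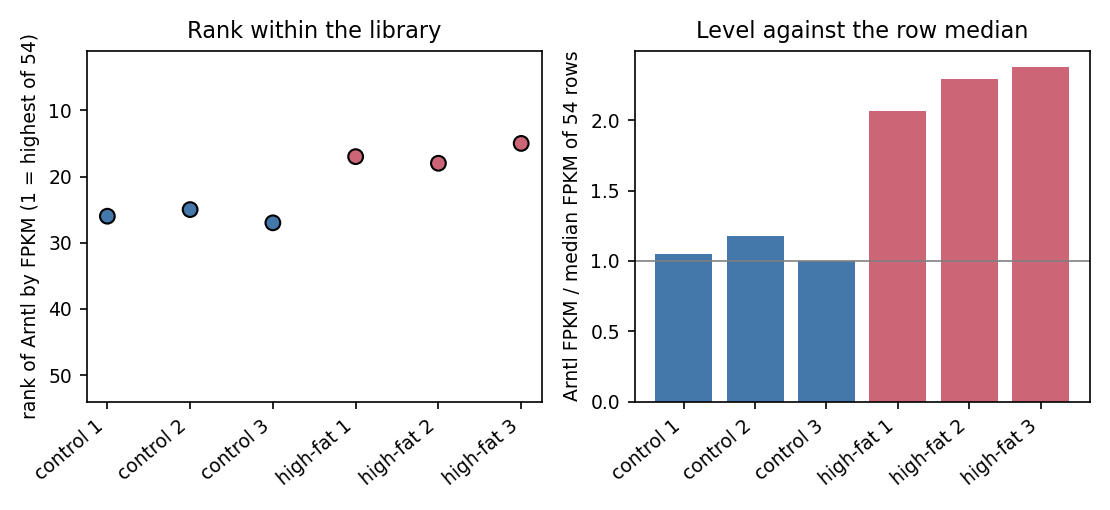
Left, rank of Arntl by FPKM among the 54 rows of each library (1 is the highest). Right, Arntl FPKM divided by the library's median FPKM over the 54 rows, with a line at 1. The control libraries (blue) rank between 25 and 27 and the high-fat libraries (red) between 15 and 18.

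Among the 36 rows with a higher mean on the high-fat diet, Arntl had the fifth largest ratio of means. Above it were Gabrr2, a GABA receptor subunit (12.5), the small nucleolar RNA Snord73a (8.18), Rasd2, a Ras-related GTPase (4.42), and Fam78b (3.36), and just below it was Cpne4, a calcium-dependent phospholipid-binding copine (3.11). Of the 4 rows above it, Gabrr2, Rasd2 and Fam78b had a mean under 1 FPKM over the 6 libraries. Gabrr2 and Snord73a were listed at 0 in control diet replicate 1. Arntl averaged 1.74 FPKM, rank 19 of 54 by level, between Arl10 (1.88 FPKM) and Pcyox1l (1.64 FPKM). These neighbours in level had lower ratios, 1.75 and 1.91, and the median ratio of the 36 rows was 2.06. By the ratio of the lowest high-fat to the highest control library, 1.96, Arntl was the fourth of the 36.

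**Figure D4:**
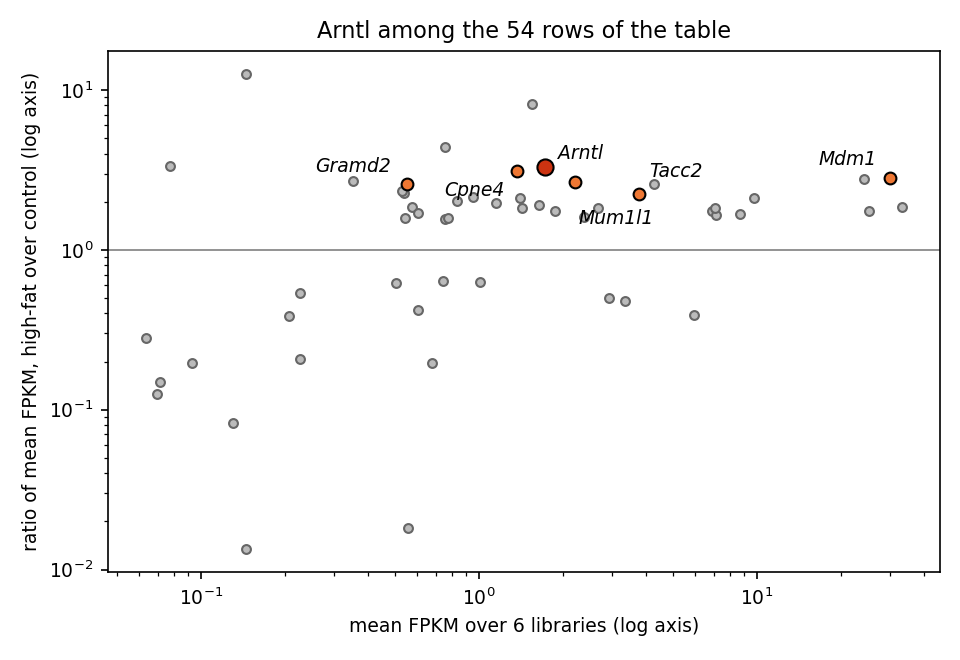
Ratio of mean FPKM, high-fat over control, against mean FPKM over 6 libraries for the 54 rows (both axes logarithmic), with Arntl in red and the 5 rows most like it in orange. Arntl has a ratio of 3.27 at a mean of 1.74 FPKM, and the line marks a ratio of 1.

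The other genes of the core loop, such as Clock, the Per and Cry genes and Nr1d1, are not reported here, so the state of the loop cannot be read from these values. Among all 54 rows, 66.7% had a higher mean on the high-fat diet. Outside the core loop, 1 of 12 clock output genes was in the table, Cdkn1a, a cell cycle inhibitor whose liver rhythm depends on BMAL1 in mice. Its mean was 2.59 times as high on the high-fat diet, from 1.54, 2.96 and 2.65 FPKM with normal food to 7.22, 6.78 and 4.48 FPKM with high-fat food. Its order of libraries differed from that of Arntl: control diet replicate 1 was its lowest and high-fat diet replicate 3 its lowest high-fat library. Of 9 genes that respond to glucocorticoids, hormones with a daily rhythm, 2 were present, Cdkn1a and Fkbp5, the latter a co-chaperone of the glucocorticoid receptor. The levels of Fkbp5 were 9.85, 3.67 and 5.39 FPKM with normal food against 13.6, 11.3 and 14.8 FPKM with high-fat food. Its ratio of means was 2.10, and its 6 libraries fell in the same order as those of Arntl. Of 10 genes that follow temperature or heat shock, Hsph1 and Dnajb4, both chaperone genes, were present, with ratios of 1.84 and 1.58. None of 10 islet markers (Ins1, Ins2, Gcg and others) and none of 14 markers of acinar, duct, endothelial, stellate and blood cells was among the rows, so the labelled tissue could not be checked against them.

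Likeness to Arntl was measured as the root mean square difference, over the 6 libraries, between log2(FPKM + 0.1) values centred on each row's own mean. The 5 rows most like it were Cpne4 (0.15), Mum1l1, a PWWP domain gene (0.20), Tacc2, a coiled-coil protein gene of the centrosome (0.24), Gramd2, a GRAM domain gene (0.27), and Mdm1, which encodes a microtubule-binding centriole protein (0.31). The median over the other rows higher on the high-fat diet was 0.40, and over the 18 lower rows 1.31. Cpne4 followed Arntl in its order of libraries, with 1.08, 0.396 and 0.527 FPKM on the control diet against 1.91, 1.80 and 2.51 FPKM on the high-fat diet. In all, 12 of the 53 other rows had their 6 libraries in the same order as Arntl. That order places every control library below every high-fat library, so any row sharing it has a higher high-fat mean by definition. Control diet replicates 2 and 3 were nearly equal for Arntl, at 0.64305 and 0.64375 FPKM. With these taken as tied, 16 rows had its order, which again places every control library below every high-fat library. Since the rows were picked for a diet difference, likeness over both diets follows in part from that choice.

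The rows nearest to the mirror image of Arntl, with the sign of its centred profile turned, were Kcng2, a modulatory potassium channel subunit (0.28), Tnfrsf12a, a TWEAK receptor gene (0.42), and Selenbp1, which encodes a protein that binds selenium (0.50). Their high-fat mean was 0.206, 0.481 and 0.502 times the control mean. Kcng2 was listed at 0 in high-fat diet replicate 3, the library in which Arntl was highest.

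**Figure D5:**
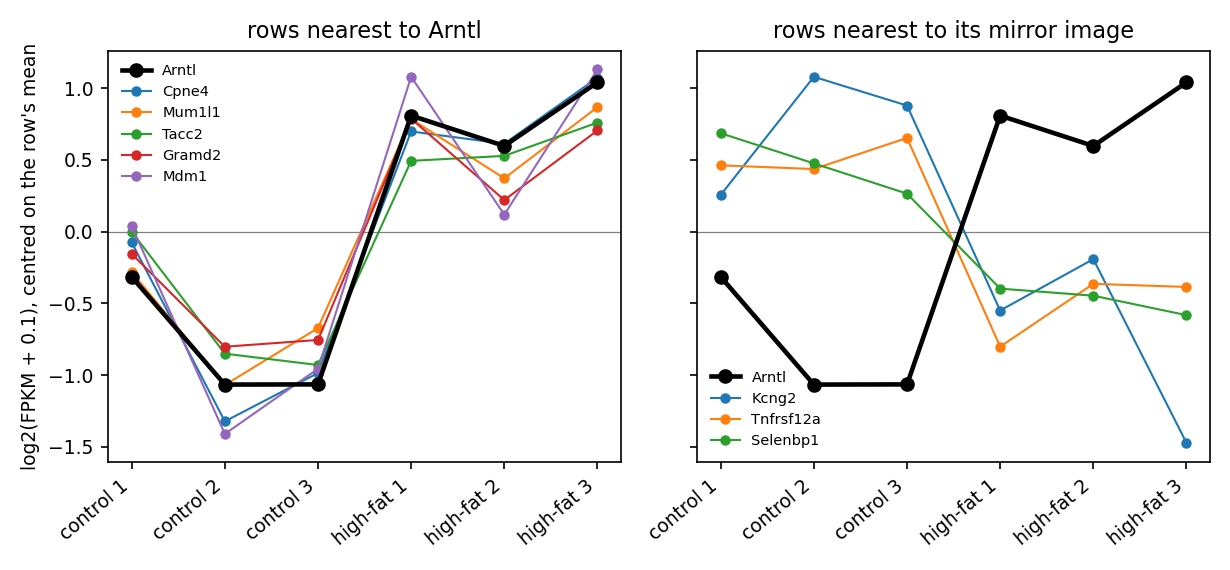
Values of log2(FPKM + 0.1) per library, centred on each row's mean, for Arntl (black) with the 5 rows most like it (left) and with the 3 rows nearest to its mirror image (right). In each left row every control value lies below every high-fat value, though control diet replicate 1 is near the row's mean for Cpne4, Tacc2 and Mdm1. The left rows share the dip at high-fat diet replicate 2, except Tacc2, whose lowest high-fat library is replicate 1.

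When each row was instead centred within its diet, so that the diet difference took no part, the nearest row was Insr, the insulin receptor gene (0.03), followed by Gabarapl1, an autophagy gene (0.06), Arl10, an ARF-like GTPase gene (0.06), Nudt4, a phosphohydrolase gene (0.07), and Tacc2 (0.09). This measure was added after the values were seen. The Insr levels were 8.98, 5.32 and 5.08 FPKM with normal food against 10.8, 8.89 and 12.9 FPKM with high-fat food, and the diets overlapped. Arntl amounted to 12.8%, 12.1% and 12.7% of Insr in control and to 24.3%, 25.4% and 24.0% in high-fat libraries. Within a diet this share hardly varied, with a coefficient of variation of 3.04% and 2.92%, and its mean was 1.96 times as high on the high-fat diet. The pair was picked as the closest of 53, so this closeness is a description of these libraries.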

How the data were processed

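RNA of islets from 6 libraries, 3 per diet, was stored in Trizol and made into total RNA libraries with a Vazyme kit, per the labels' protocols. The submitters' processing notes name HISAT2 2.1.0, StringTie 1.3.3, Trimmomatic 0.36 and the GRCm38 build, without settings or order. The deposited table gives FPKM per library for 54 genes, and the authors' means and SDs, p-values, log2 fold changes, scores and effect sizes. The authors' means, SDs and log2 fold changes were recomputed from FPKM within 1e-09. The rule that picked the rows is not stated.

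Columns were assigned by sample title and diets by the diet label. Ratios used mean FPKM with no pseudocount and no filter. Likeness used log2(FPKM + 0.1). Named genes were Arntl, the 5 most like it, the 3 nearest its mirror image, its neighbours by ratio and level, and genes of clock, output, glucocorticoid and heat shock lists (not every listed gene is reported here); the rows above it by ratio, those nearest within diets and those holding a motif were added after their values were seen. The gene, lists and alternatives were chosen with earlier results of these data known. Python 3.11.15, numpy 2.4.6 and pandas 2.3.3 were used. Alternatives were other pseudocounts, a minimum mean of 1 FPKM, group medians, scaling by the library's row median and leaving out each library.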

Additional observations from a re-analysis of the deposited data

How the results depend on the processing

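The log2 ratio of means of Arntl, 1.71, stayed above 0 in every alternative run. It was 1.02 as a difference of mean log2(FPKM + 1), where the pseudocount exceeds the control mean, and 1.06 with each library divided by its median over the 54 rows, a median that itself differs between the diets. Its other values moved by less than the replicate SD of 0.38, and leaving out 1 library gave 1.57 to 2.05. Its place among the rows higher on the high-fat diet, 5, became 2 among rows with a mean of at least 1 FPKM, 3 on log2(FPKM + 0.1) and 6 on log2(FPKM + 1). Without 1 library it was 4 to 6. Of the 5 rows most like Arntl, 3 remained with a pseudocount of 1, 1 with centring within diets (added after seeing the data), and 3 to 5 without 1 library, with 3 when control diet replicate 1 was left out. Cpne4 was among them in every alternative but centring within diets. Unknown depth and 3 libraries per diet limit all values.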
